A study of Mus musculus with 4 samples.

Results

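Apoptosis is run by 2 connected routes, and 9 of their regulators were followed here in injured mouse aorta: Bcl2, Bcl2l1, Mcl1, Bax, Bcl2l11, Bbc3, Pmaip1, Fas and Casp8. They were taken by gene name from the probes that are not controls, 9 of 37074 names on the array, with 22 of 56605 probes. The arrays labelled SR-A1-/- (K4 and K5) and those labelled Wild Type (W2 and W3, here WT) carried RNA of abdominal aortas from male mice aged 12 weeks, collected 4 weeks after an operation in which CaPO4 was applied. SR-A1, the product of Msr1, is a macrophage scavenger receptor, and aneurysm-like injury of the aorta by calcium phosphate was common to both groups, so no uninjured aorta enters the comparison. The labels name neither the allele nor the strain, and do not say whether an array held 1 animal; the design text speaks of independent experiments, and the p-values cover the spread of these 4 arrays, which may be partly technical.

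In the mitochondrial route, Bax, once activated, opens pores in the outer mitochondrial membrane. Bcl2, Bcl-xL (from Bcl2l1) and Mcl1 hold it back, and BH3-only proteins such as Bim (from Bcl2l11), Puma (from Bbc3) and Noxa (from Pmaip1) bind those guardians and release the block. In the death receptor route, Fas on the cell surface recruits adaptors that activate caspase-8. In aneurysm the loss of medial smooth muscle cells by apoptosis is a recognised feature, and macrophages clear the dying cells.

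Values are log2 processed signal relative to the 75th percentile of the array, and differences are the arrays labelled SR-A1-/- minus those labelled WT, with the limma standard error. The 75th percentile was 245 on K4 and 133 on K5, against 132 on W2 and 220 on W3, so that each group held 1 array of a higher and 1 of a lower signal level. Between 57.6% and 62.6% of probes were well above background. All 8 smooth muscle markers were tested. The highest reading was 9.47 (Acta2 and Tagln on W2), and the lowest was Lmod1, at -0.17 and -0.20 on the arrays labelled SR-A1-/- and -0.02 and -0.15 on those labelled WT. Msr1 did not follow the labels. Its brightest probe read -1.26 and -2.09 on K4 and K5, against -5.30 on W2 and -2.10 on W3. Only on W2 was it not well above background, and K5 and W3 nearly coincided. The difference was 2.03 ± 1.08 (interval -0.75 to 4.8, in the fit of all probes). Its other probe read -1.5 and -1.38 on K4 and K5, against -6.4 on W2, again not well above background, and -2.12 on W3. Whether its probes read the part of Msr1 that the allele removes is not given in the sources used here. Every direction below therefore refers to the labels alone.

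For 5 of the genes, 60-base probes that read protein-coding sequence are shown because they set the part of the protein beside the measurement. Each is given 5′ to 3′ from the array files, with positions on mm9. In the Bcl2l11 probe the capitals mark the codons of the glycine and aspartate at the core of the BH3 motif, the helix by which Bim binds its partners. The Bcl2l11 probe reads plus-strand bases within chr2:127972893-127983988, a span wider than the probe, so it crosses an intron. The Bax probe likewise spans more than its length, on the minus strand of chr7:52721469-52721624. The probes of Bcl2 (chr1:108608970-108609029, minus strand), Bcl2l1 (the NM_009743 probe at chr2:152655185-152655244 and the NM_001289739 probe at chr2:152655618-152655677, minus strand) and Casp8 (chr1:58901601-58901660, plus strand) lie on unbroken stretches.
Bcl2l11: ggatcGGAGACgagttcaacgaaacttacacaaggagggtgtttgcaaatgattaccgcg
Bax: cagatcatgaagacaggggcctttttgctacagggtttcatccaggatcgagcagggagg
Bcl2: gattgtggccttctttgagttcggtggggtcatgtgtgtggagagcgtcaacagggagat
Bcl2l1, NM_009743: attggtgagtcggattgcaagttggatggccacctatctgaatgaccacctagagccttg
Bcl2l1, NM_001289739: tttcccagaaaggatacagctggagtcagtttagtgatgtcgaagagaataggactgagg
Casp8: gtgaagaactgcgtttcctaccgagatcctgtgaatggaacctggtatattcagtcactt

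None of the 9 genes passed an adjusted p of 0.05 in limma, where 0% of all 22498 tested genes passed. At an unadjusted p under 0.05, 2 of the 9 were found, Pmaip1 and Bcl2l11, against 6.29% of all genes. Both arrays labelled SR-A1-/- lay above both labelled WT for these 2 genes, and 16.1% of all genes did the same. For Bax, Bbc3 and Fas both lay below, as for 13.7% of all genes. The groups overlapped for Bcl2, Bcl2l1, Mcl1 and Casp8. The median difference over the 9 genes was -0.02, against -0.01 over all tested genes. In whole tissue, fewer cells of a type and less RNA per cell cannot be told apart.

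**Figure D1:**
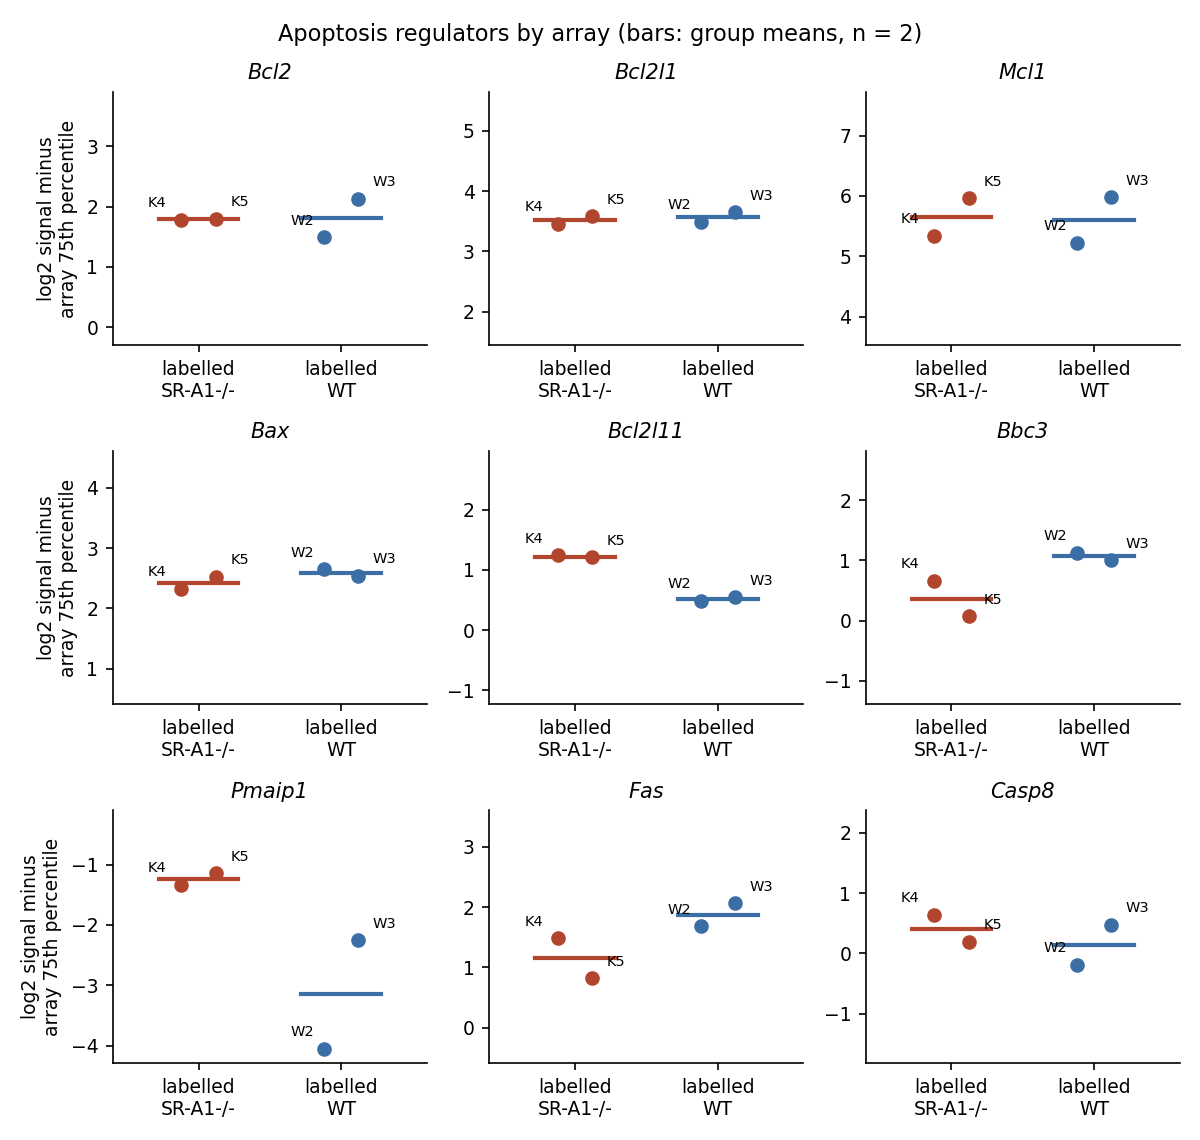
Log2 processed signal minus the array's 75th percentile (vertical axis, each panel spanning the same range of log2 units) for the brightest probe of each gene, with arrays K4 and K5 labelled SR-A1-/- in red, W2 and W3 labelled WT in blue, and bars at the group means. The groups stand apart for Bcl2l11 and Pmaip1 (higher on K4 and K5) and for Bbc3 and Fas (lower), almost touch for Bax, and overlap for the other 4 genes.

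Bcl2, the founding survival gene of the family, read 1.78 and 1.80 on the arrays labelled SR-A1-/-, against 1.49 and 2.13 on those labelled WT. The arrays labelled WT lay on either side of the other pair. The difference was -0.02 ± 0.34, with a 95% interval of -0.89 to 0.86. That probe lies at bases 7109 and on of NM_009741, far downstream in the transcript (chr1:108434793-108434852, mm9). The coding probe of Bcl2 shown above, designed on NM_177410, read 0.72 and 1.93 on K4 and K5 and 1.54 and 1.13 on W2 and W3, a difference of -0.01 ± 0.49. The remaining probe, on ENSMUST00000189999, differed by 0.16 ± 0.39. All 3 probes of Bcl2 overlapped between groups.

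Bcl2l1, whose long form Bcl-xL protects many differentiated cells, was at 3.46 and 3.58 on the arrays labelled SR-A1-/- and 3.49 and 3.65 on those labelled WT. The difference of -0.05 ± 0.28 had an interval of -0.77 to 0.67. These 4 values lay closest together among the 9 genes. The gene had 5 probes, all above background on every array, and their differences ran between -0.21 and 0.22, with the groups overlapping at each. Of its coding probes shown above, the one on NM_009743 differed by -0.06 ± 0.36 and the one on NM_001289739 by 0.12 ± 0.46.

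Mcl1, a short-lived guardian that cells must keep making, was at 5.34 and 5.96 on the arrays labelled SR-A1-/- and at 5.22 and 5.98 on those labelled WT. The spread within each label, from K4 to K5 and from W2 to W3, was wider than the distance between the means, and the difference was 0.05 ± 0.41 (interval -1.02 to 1.12). At the second Mcl1 probe, on NM_008562, the arrays labelled SR-A1-/- read 4.65 and 5.56 and those labelled WT read 4.81 and 5.48, a difference of -0.04 ± 0.45. Both probes put K5 and W3 high and K4 and W2 low. The difference within the arrays of higher signal level (K4 minus W3) was -0.64, and within those of lower level (K5 minus W2) it was 0.74.

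Bax, the pore-forming effector, read 2.33 and 2.53 on the arrays labelled SR-A1-/-, against 2.65 and 2.54 on those labelled WT. The groups were parted by 0.01 between K5 and W3, and the difference was -0.16 ± 0.28 (interval -0.89 to 0.56). With quantile or cyclic loess scaling, with the deposited values, or with the mean of its probes, the Bax groups overlapped. The coding probe of Bax shown above read -0.22 and 0.28 on K4 and K5 and 0.67 and 0.23 on W2 and W3. Its difference was -0.43 ± 0.34, and there K5 stood above W3.

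The balance of Bax and Bcl2 is often read as the readiness of a cell to die. The log ratio of their signals within an array, in which the scaling between arrays cancels, was 0.54 and 0.73 on the arrays labelled SR-A1-/- and 1.16 and 0.41 on those labelled WT. Both values of the arrays labelled SR-A1-/- fell between those of the arrays labelled WT. The means were 0.64 ± 0.13 and 0.78 ± 0.53 (SD, n = 2 each), a change of -0.14 (exact permutation test over arrays, two-sided, p = 1). With 2 arrays against 2 that test cannot go below 0.33. The log ratio takes the brightest probe of each gene. It can show unequal change between arrays, but not the level of Bax RNA against that of Bcl2.

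Bcl2l11, which encodes Bim, the BH3-only protein that binds every guardian named here, gave the tightest separation of the 9 genes. Its brightest probe lies on NM_207680 at base 4804 (chr2:127988051-127988110, plus strand, mm9) and read 1.24 and 1.21 on the arrays labelled SR-A1-/-, against 0.49 and 0.55 on those labelled WT. Within each label the arrays nearly coincided, and the nearest arrays of the groups were 0.66 apart. The difference of 0.70 ± 0.27 is a ratio of 1.63, with a 95% interval of 0.00 to 1.40 on the log2 scale (limma, adjusted p = 0.791, and 0.336 to 1 over the alternatives). It was 0.69 between the arrays of higher signal level and 0.72 between those of lower level. Leaving out each array in turn gave 0.672 to 0.735.

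The other probes of Bcl2l11 did not all read alike. The coding probe that crosses the BH3 codons was dim, at -3.77 and -3.14 on the arrays labelled SR-A1-/- and -4.62 and -4.47 on those labelled WT, and on W2 it was not well above background. The groups were again apart there, with a difference of 1.09 ± 0.34 (adjusted p = 0.681 in the fit of all probes). A probe on NM_001284410 at base 2204 read -2.77 and -2.59 on K4 and K5, against -2.67 and -3.00 on W2 and W3. Its difference was 0.16 ± 0.29, with overlapping groups. The fourth probe, on the same transcript at base 450, was not well above background on any array. NM_001284410 is a separate transcript of the gene, and whether its level and that of NM_207680 differ in their response to the labels was not tested.

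**Figure D2:**
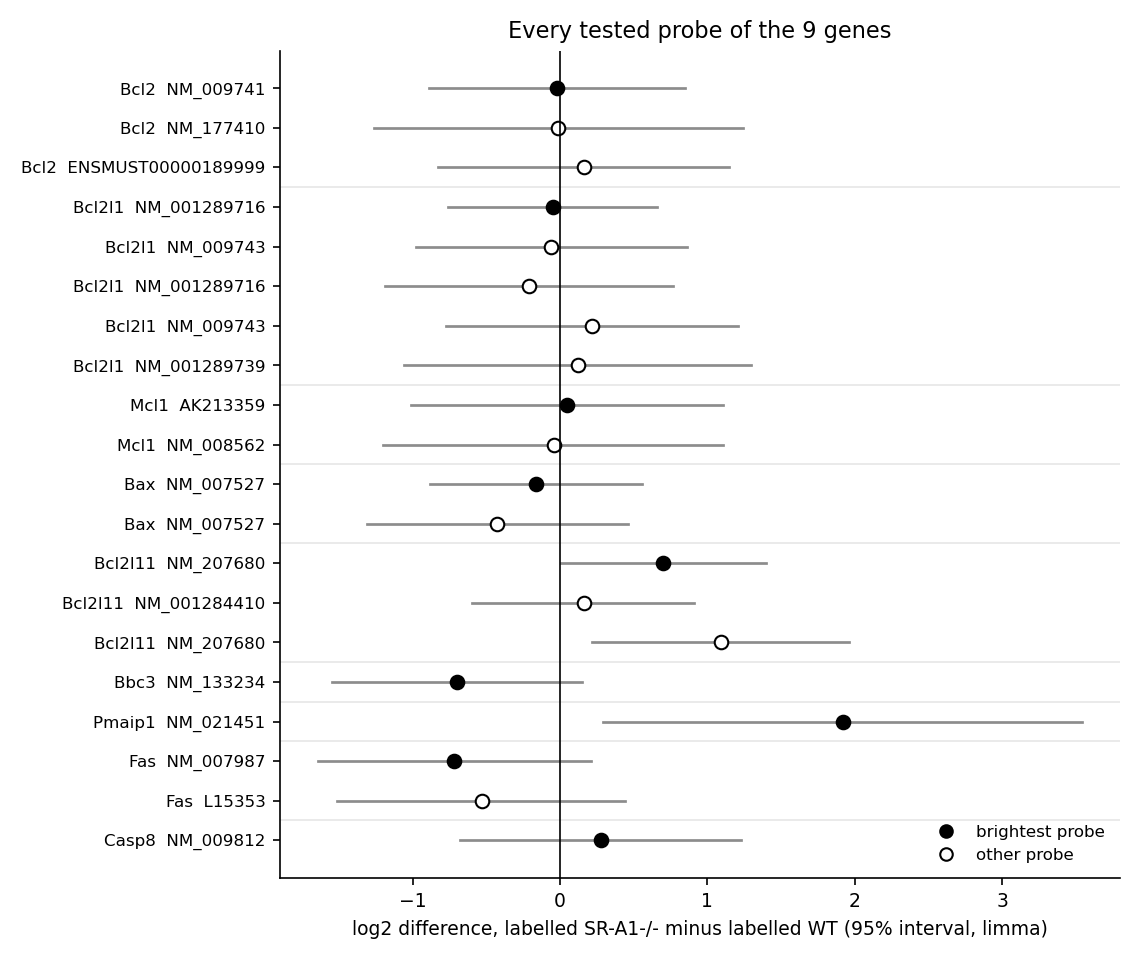
Log2 difference, arrays labelled SR-A1-/- minus those labelled WT (horizontal axis), for the 20 tested probes of the 9 genes by gene and transcript, with limma 95% intervals. Filled points are the brightest probe of a gene. The intervals of Pmaip1 and of both NM_207680 probes of Bcl2l11 lie above 0 before adjustment, and all others span 0.

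Pmaip1, which encodes Noxa, the BH3-only partner of Mcl1 and a p53 target, had the widest difference of the 9 genes. It read -1.33 and -1.14 on the arrays labelled SR-A1-/-, against -4.05 and -2.25 on those labelled WT. K4 and K5 were close (mean -1.24 ± 0.13, SD, n = 2), while W2 and W3 lay apart (mean -3.15 ± 1.27, SD, n = 2). W2 was near the lowest log2 signal called above background on that array, -4.26. The difference was 1.92 ± 0.64 (interval 0.28 to 3.56), a ratio of 3.78 (limma, adjusted p = 0.702, and 0.0193 to 1 over the alternatives). It was 1.02 without W2 and 2.82 without W3, where the lone W2 stood for its label and the adjusted p was 0.0193. With normexp background correction it was 0.73.

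Bbc3, which encodes Puma, another p53 target, went the opposite way from Pmaip1. The arrays labelled SR-A1-/- were at 0.66 and 0.07, against 1.13 and 1.0 on those labelled WT, and K5 was the lowest. The difference was -0.70 ± 0.33 (interval -1.56 to 0.15, adjusted p = 0.899 in limma and 0.435 to 1 over the alternatives). It was -0.34 between the arrays of higher signal level and -1.06 between those of lower level. Without K5 it was -0.41. Its probe lies on NM_133234 at chr7:16903403-16903462 (mm9).

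Fas, the death receptor, was at 1.48 and 0.82 on the arrays labelled SR-A1-/- and at 1.68 and 2.06 on those labelled WT, in its NM_007987 probe (chr19:34402164-34402223, mm9). K5 was again the lowest of the 4. The difference was -0.72 ± 0.36 (interval -1.65 to 0.22, adjusted p = 0.932 in limma and 0.342 to 1 over the alternatives), and without K5 it was -0.39. A probe on NM_001146708 was well above background on K4 only, so no fold is given for it. Its readings went the other way, at -4.85 and -5.46 on K4 and K5, against -6.54 and -7.27 on W2 and W3. Another probe that carries the name Fas, designed on L15353, is placed by the array file on chromosome 4 rather than 19. It read -0.54 and -0.20 on K4 and K5 and 0.56 and -0.22 on W2 and W3, with overlapping groups, and which gene it measures was not tested.

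K5 also stood apart in white adipocyte markers, whose mean level over 6 genes was 4.92 on K4 and -0.91 on K5, against 4.16 on W2 and 4.90 on W3. None of these markers was absent from the kept genes. Lep, 1 of the 6, was higher on both arrays labelled SR-A1-/-, as were 16.1% of all genes. The part of this shift in the low Fas and Bbc3 values of K5 was not tested.

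Casp8, the initiator caspase activated below Fas, was at 0.64 and 0.19 on the arrays labelled SR-A1-/- and -0.19 and 0.47 on those labelled WT. The groups overlapped, with a difference of 0.28 ± 0.37 (interval -0.68 to 1.24). Within both pairs of like signal level it was positive, 0.17 for K4 minus W3 and 0.38 for K5 minus W2. Without W2 it was -0.05.

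**Figure D3:**
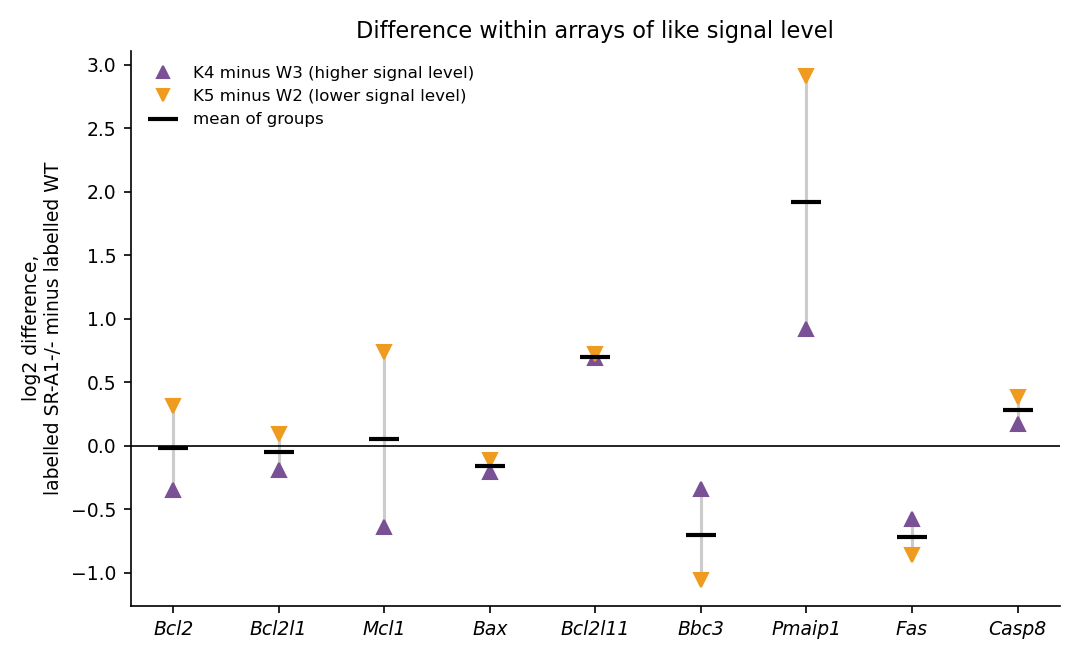
Log2 difference, array labelled SR-A1-/- minus array labelled WT (vertical axis), for each of the 9 genes (horizontal axis) within the arrays of higher signal level (K4 minus W3, upward triangles) and of lower level (K5 minus W2, downward triangles), with the difference of group means as a bar. Both pairs gave nearly one value for Bcl2l11 (0.69 and 0.72), and Mcl1 gave opposite signs (-0.64 and 0.74).

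Macrophage and T and NK cell markers were mostly higher on the same arrays as Bcl2l11 and Pmaip1, while B cell and neutrophil markers were not. Over all genes, 16.1% were higher and 13.7% lower on both arrays labelled SR-A1-/-. Macrophage markers were higher on both arrays labelled SR-A1-/- in 7 of 8 genes, with mean levels of 3.16 and 2.64 there and 0.91 and 1.60 on W2 and W3, and T and NK cell markers in 4 of 5 tested, with means of -1.18 and -1.12 against -2.26 and -2.09. Smooth muscle markers were lower on both arrays in 5 of 8 genes, with means of 4.73 and 5.04 against 5.65 and 5.24. Skeletal muscle markers were lower in 4 of 6, with means of 3.74 and 4.69 against 7.18 and 5.25. Endothelial markers had means of 1.76 and 1.71 against 1.64 and 1.05, with 3 of 6 higher and 1 lower. The fibroblast means were 6.65 and 6.91 against 6.87 and 6.37 (1 of 6 higher), those of B cells -2.62 and -2.51 against -2.44 and -2.35 (1 of 4 lower), and those of neutrophils 0.64 and 0.66 against -1.10 and 1.68 (1 of 4 higher). The part of the cell makeup in Bcl2l11, Pmaip1 or any other gene here was not tested.

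Around the 9 members, 57 of 64 other apoptosis genes were tested, and none passed the adjusted p in limma. Of these, 10 were higher and 9 lower on both arrays labelled SR-A1-/-, with a median difference of 0.07, where 16.1% and 13.7% of all genes stood so. At an unadjusted p under 0.05 there were 3, namely Bik, Cdkn1a and Perp, against 6.29% of all genes. Among caspases, the proteases that carry out or trigger cell death and inflammation, the differences of the 8 tested genes ran between 0.02 and 0.88, with a median of 0.32, and 4 were higher on both arrays. They were Casp1, which matures interleukin-1 beta, Casp2, Casp4 and Casp12. Casp1 read 2.30 and 1.32 on the arrays labelled SR-A1-/- and 0.65 and 1.20 on those labelled WT, a difference of 0.88 ± 0.45, and without K4 it was 0.39. Casp2 differed by 0.40 ± 0.30 (0.23 without K4) and Casp12 by 0.33 ± 0.28.

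Of 6 tested BH3-only genes beyond the members, 1 was higher and 1 lower, where 16.1% and 13.7% of all genes stood so. Bik, a BH3-only protein of the endoplasmic reticulum, was at -1.94 and -1.87 on the arrays labelled SR-A1-/- and -0.86 and -0.65 on those labelled WT. Its difference of -1.15 ± 0.28 stayed between -1.05 and -1.25 when each array was left out, and the adjusted p in limma was 0.504. With normexp background correction it was -0.66. Bid, which links caspase-8 to mitochondria, differed by 0.42 ± 0.34 (0.73 without W2 and 0.12 without W3) and Bmf by 0.63 ± 0.42 (0.29 without K4 and 0.26 without W3). Neither of the other pore-forming relatives was apart between labels, with Bok at 0.95 ± 0.68 (0.02 without W3) and Bak1 at 0.15 ± 0.29. Of the survival relatives, Bcl2l2 differed by 0.02 ± 0.30 and Bcl2a1d by 1.25 ± 1.14. Bcl2a1d has near-identical copies whose RNA may bind the same probe, and it read -1.61 on W2 alone against 1.87 on W3.

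Among p53 and its targets outside the members, 1 of 11 was higher and 3 were lower, against 16.1% and 13.7% of all genes. Cdkn1a, the cell cycle inhibitor p21, was at 0.77 and 1.61 on the arrays labelled SR-A1-/- and 2.13 and 2.81 on those labelled WT, a difference of -1.28 ± 0.44 (adjusted p = 0.716 in limma), and all 3 of its probes were below 0. Perp, a membrane protein of cell junctions that p53 induces, was at 3.24 and 3.14, against 2.43 and 1.14, a difference of 1.40 ± 0.49 (adjusted p = 0.733). Without W3 it was 0.76. Ccng1 differed by -0.62 ± 0.32 (-0.34 without K5).

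On the receptor side, 1 of 6 tested death receptor and ligand genes was higher and 2 lower, against 16.1% and 13.7% of all genes. Tnfrsf10b, the mouse receptor for TRAIL, was at 0.22 and 0.45 on the arrays labelled SR-A1-/- and 0.59 and 1.81 on those labelled WT, a difference of -0.87 ± 0.48. Without W3 it was -0.26. Tnfrsf21 differed by -0.42 ± 0.29 and Tnf by -0.33 ± 0.32, while Tnfrsf1a was the gene higher on both arrays, at 0.25 ± 0.28. Of the adaptors below the receptors 2 of 5 were higher, Fadd at 0.37 ± 0.31 and Ripk1 at 0.15 ± 0.27, and Traf2 was lower at -0.50 ± 0.36. Without W3, Fadd was at 0.16 and Traf2 at -0.13.

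Downstream, 0 of 6 apoptosome and mitochondrial genes were apart between labels, where 16.1% of all genes were higher and 13.7% lower. Cytochrome c, from Cycs, was at 4.78 and 2.77 on the arrays labelled SR-A1-/- and 3.60 and 5.87 on those labelled WT, a spread within each label wider than its difference of -0.96 ± 1.0. Aifm1 and Endog differed by -0.52 ± 0.60 and -0.26 ± 0.32. In the inhibitor of apoptosis family, whose members share a domain, 1 of 7 was higher, Naip2 at 1.16 ± 0.49 (0.60 without W2, and 0.62 with normexp). Birc5 (survivin), also a mitosis gene, differed by 1.10 ± 0.64 (0.35 without W2 and 1.86 without W3) and Birc3 by 0.23 ± 0.31 (0.05 without K5). Among caspase substrates and the nuclease subunits, 2 of 4 were lower, Parp1 at -0.25 ± 0.29 and Lmna at -0.21 ± 0.27, and Dffa differed by -0.21 ± 0.37.

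**Figure D4:**
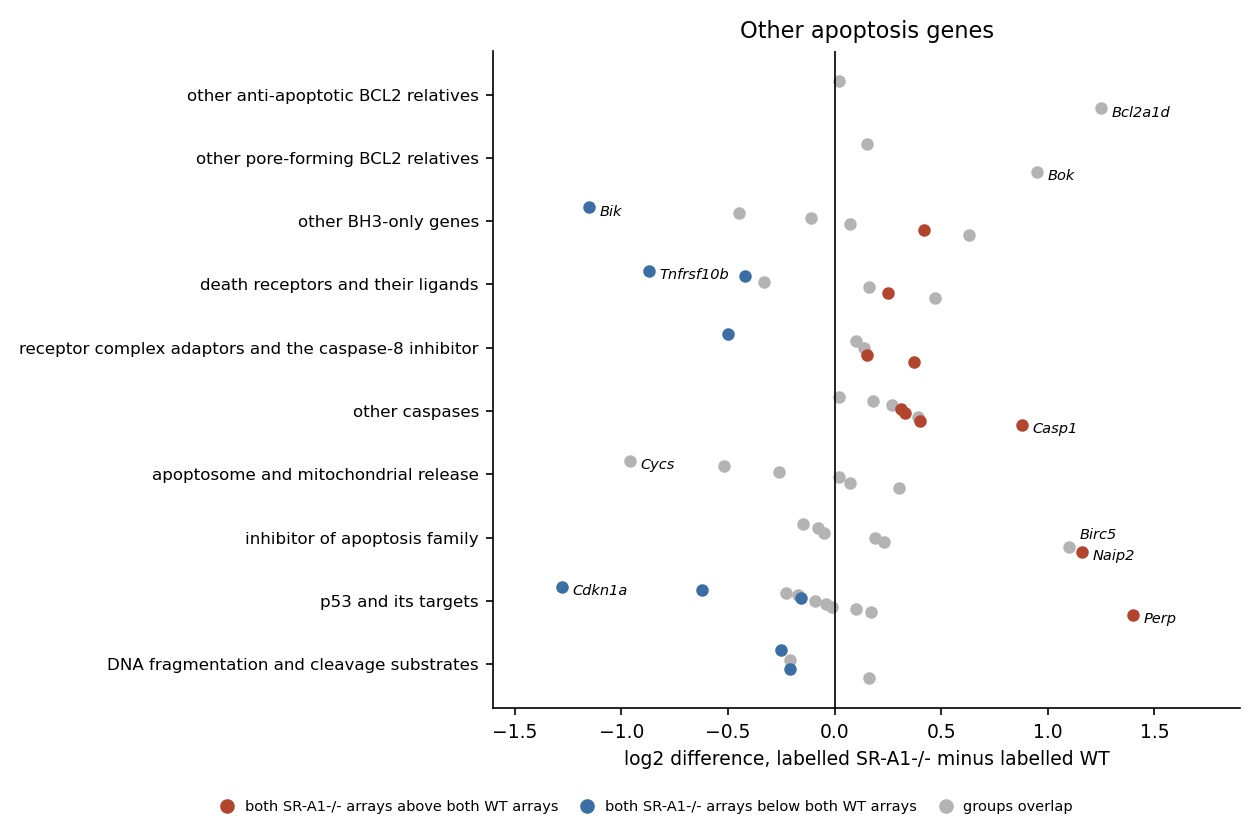
Log2 difference, arrays labelled SR-A1-/- minus those labelled WT (horizontal axis), for the 57 tested apoptosis genes outside the 9, by list. Red points have both SR-A1-/- arrays above both WT arrays (10 genes), blue points the opposite (9 genes) and grey points overlap, and the 8 tested caspases run between 0.02 and 0.88.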

How the data were processed

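RNA of abdominal aorta was hybridised to 4 one-colour Agilent arrays on 1 slide. Per the file headers, the deposited processed signal is an intensity written by Agilent Feature Extraction 12.0.3.1 after background subtraction and detrending, not scaled between arrays. The submitters' processing notes name version 10.7 and limma, with no role. The deposited mean and local background signals are intensity values too, per the file headers. The authors' table of values is in log2 units, with medians of 4.31 to 4.32 and a centring step not given in the sources used here. It tracked the log2 signal of each array (r of 0.999 or above).

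Control and outlier spots were removed (74 to 102 outliers an array; none was saturated), spots of a probe were averaged, and log2 values were set relative to the 75th percentile of their array. The 35107 of 56605 probes flagged well above background on 2 or more arrays were kept, and each gene name took its brightest one, leaving 22498 of 37074 names. Differences came from limma 3.58.1 under R 4.3.3 (lmFit, then eBayes; two-sided; Benjamini-Hochberg over every tested gene, threshold 0.05), and all kept probes were fitted the same way for the single probes. The fit was also run on simulated data with planted changes and independent noise. That run checks the code, not how far calls on these 4 arrays can be trusted. An exact permutation test over arrays compared the Bax to Bcl2 log ratio. Text was parsed by data.table (release 1.17.8), and matplotlib 3.10.9 under Python 3.11.15 drew the plots. Precision is limited by the number of arrays.

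Members, lists and alternatives were chosen with earlier results of these data known. Named genes are the 9 members, Msr1 and up to 3 tested genes of lowest p in each list of other apoptosis genes; Acta2, Tagln, Lmod1, Lep, Casp4 and Tnfrsf1a were named after their values were seen. Alternatives covered the scaling (quantile, median, cyclic loess), normexp with offset 50, the filter (none, or all 4 arrays), outlier spots, averaging of a gene's probes, the variance model (trend, robust, array weights, signal level as block), the deposited log2 table and removal of each array.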

Additional observations from a re-analysis of the deposited data

How the results depend on the processing

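All 9 genes missed the adjusted threshold under every alternative but 1, in which Pmaip1 was called without W3 (0 to 1 genes called over the arrays left out). Bcl2l11 and Pmaip1 stayed higher, and Bbc3 and Fas lower, with groups apart, under each of the 17 settings. The alternatives of the variance model used the same values, and leaving out an array cannot make separate groups overlap. Neither kind of setting could have changed this separation. Over all genes, 0 passed in the fit reported, 8 with quantile scaling, 7 with median scaling, 8 with cyclic loess, 22 with normexp, 8 with no filter, 5 with an intensity trend, 2 with array weights, 8 with the deposited values and 0 to 371 with 1 array left out (260 without W2 and 371 without W3, the lone array being assumed to vary like the other group). Without adjustment, 1416 genes and 2 members passed 0.05. With 1 array left out, 2 to 5 members were higher and 3 to 6 lower, where 30.8% to 36.2% of all genes were higher and 28.8% to 34.1% lower, and the members' median ran from -0.13 to 0.30 (0.31 between the arrays of lower signal level). The change of the Bax to Bcl2 log ratio ran from -0.52 to 0.23. No paired analysis was possible because the labels' replicate numbers differ between groups; arrays were matched by measured signal level instead, and that level as a block left 0 genes called.

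Some differences changed sign, those of 4 members among them. Bcl2 was at 0.012 with quantile scaling, 0.045 with the mean of its probes, 0.010 with the deposited values, 0.31 within the lower signal level and 0.16 at its dimmest probe, and ran from -0.34 to 0.30 with 1 array left out. Bcl2l1 was at 0.024, 0.0041, 0.018 and 0.087 in the first 4 of these settings and 0.22 and 0.12 at 2 dimmer probes, and ran from -0.13 to 0.027. Mcl1 was at -0.0012 with median scaling, -0.64 within the higher level and -0.044 at its other probe, and ran from -0.33 to 0.43, and Casp8 from -0.054 to 0.61. Tnfrsf21 was at 0.21 with the mean of its probes, Bcl2l2 at -0.034 with median scaling and -0.076 within the higher level, Bcl2a1d at -0.36 within that level, and Bmf at -0.076 and Tnf at 0.055 within the lower level. With 1 array left out, Bcl2a1d ran from -0.486 to 2.99 (called without W3), Bcl2l2 from -0.165 to 0.20, Bak1 from -0.0241 to 0.325, Cycs from -2.10 to 0.178, Aifm1 from -1.19 to 0.153, Endog from -0.514 to 0.000457 and Dffa from -0.542 to 0.12. The causes were not tested.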
